A study of Mus musculus with 6 samples.

Results

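The miR-17-92 cluster is a group of miRNAs cut from a single long non-coding transcript, Mir17hg in mouse, and this account follows its 6 mature strands, mmu-miR-17, mmu-miR-18a, mmu-miR-19a, mmu-miR-20a, mmu-miR-19b and mmu-miR-92a, written here without the species prefix. They were found by probe name and make up 6 of the 599 mouse miRNA probes of the array. Each probe was spotted 5 times, and 5 of the 6 members were bright enough to test. The samples were cultures at passage 7 of arteriolar smooth muscle cells (aSMCs), a primary line from mouse kidney, of mixed 129Sv/C57Bl6 strain, derived from the lineage of renin-making cells, and were grown and harvested independently. Forskolin cultures (n = 3) received 10 µM forskolin, which activates adenylyl cyclase, with 100 µM IBMX, which slows the breakdown of cyclic AMP, for 24 h, and 10 µM forskolin again for 30 min before harvest. Control cultures (n = 3) were untreated, and the labels name no vehicle. The labels describe a single line and give no count of animals, so p-values measure the spread between cultures of that line.

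Mature miRNAs are short RNAs of which the strand kept from a hairpin pairs with messenger RNAs, mostly through bases 2 to 8, the seed. The miR-17-92 transcript is known as a target of MYC and E2F and as a locus that favours proliferation when raised. Paralogs lie in the miR-106a-363 cluster on the X chromosome and in the miR-106b-25 cluster within an intron of Mcm7. In smooth muscle, members of the cluster have been studied in the change between the contractile and the proliferating state.

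The mature sequences are shown because the members fall into 4 seed groups, and because several differ from a relative by so few bases that their probes may not separate them. They were read from the array's target column and matched RefSeq mature miRNAs of build GRCm38.p6, as 6 of 6 members did. They are given 5′ to 3′ in the order of the hairpins, with the seed in capitals.
miR-17: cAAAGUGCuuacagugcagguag
miR-18a: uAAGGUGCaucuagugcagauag
miR-19a: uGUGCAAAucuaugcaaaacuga
miR-20a: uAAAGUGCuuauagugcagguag
miR-19b: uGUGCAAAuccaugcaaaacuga
miR-92a: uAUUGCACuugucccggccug

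The relatives on other chromosomes with one of these seeds and a tested probe follow in the same form, the first 2 from the X chromosome, the next 3 from chromosome 5 and miR-92b from chromosome 3.
miR-106a: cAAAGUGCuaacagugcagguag
miR-20b: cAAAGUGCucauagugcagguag
miR-106b: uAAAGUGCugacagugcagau
miR-93: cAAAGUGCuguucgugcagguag
miR-25: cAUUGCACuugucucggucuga
miR-92b: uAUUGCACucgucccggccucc

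Counted from 1 at the 5′ end, with the base of the first-named miRNA given first, miR-17 and miR-20a differ at C1U and C12U, and miR-19a and miR-19b at U11C alone. miR-17 and miR-106a differ at U10A alone. miR-20a and miR-20b differ at U1C and U10C. miR-92a and miR-25 differ at 3 of 21 compared bases, U1C, C14U and C18U. Over those bases the sequence of miR-92b shown above is closer still to miR-92a. No array control in the files measures how far such pairs share signal, so relatives are not independent measurements, and cross-hybridisation was not tested. miR-19b and miR-92a are also encoded a second time, on the X chromosome, and a probe cannot tell the copies apart.

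The hairpins of the cluster lie on the plus strand of chromosome 14 (GRCm38.p6), from 115043671 to 115044506, a stretch of 836 bases. The mature miR-17 occupies 115043684 to 115043706 and the mature miR-92a 115044476 to 115044496. RefSeq annotates Mir17hg as a long non-coding RNA from 115044390 to 115046728, so 5 of the 6 hairpins begin upstream of the start annotated in that build. The host transcript itself has no probe on this array.

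The arrays differed in dye and brightness. Forskolin replicates 1 and 3 were stained with Cy5 and replicate 2 with Cy3, while control replicate 2 was stained with Cy5 and replicates 1 and 3 with Cy3. Over the 167 tested probes, the median spot intensity above the empty spots was 347, 683 and 405 in forskolin replicates 1 to 3, against 502, 80.3 and 910 in control replicates 1 to 3. Control replicate 2 was thus the dimmest array, and every comparison that includes it depends on the scaling between arrays. Forskolin replicate 2 stood apart in another way, with 585 of 599 probes above the detection limit and 162 to 225 in the other samples. With 6 arrays, the precision of all values below is limited by their number. Among marker miRNAs, miR-143 and miR-145 of smooth muscle were detected in all 6 samples. The summed log2 intensity of those 2 ran from 13.28 to 13.94 in forskolin cultures and from 14.03 to 14.13 in controls. The log2 fold changes of miR-143 and miR-145 were -0.51 and -0.40 and did not pass (limma adjusted p 0.390 for each). The part of these markers in the results below was not tested. None of the 2 endothelial, 5 blood and 5 epithelial marker probes was detected in all samples of a group. Of 4 kidney tubule markers, miR-192 and miR-194 were detected in 3 of 3 forskolin and 1 of 3 control cultures, near background. They entered the test only through the forskolin group, in which replicate 2 had nearly all probes above the limit. Their log2 fold changes of 0.12 and 0.33 did not pass (limma adjusted p 0.795 and 0.428). The summed log2 intensity of the 4 was 8.53 to 8.55 in forskolin cultures and 8.39 to 8.52 in controls, and its part in the results was not tested.

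After forskolin and IBMX, every tested member of the cluster had lower intensity than in untreated cells. The test was passed by miR-17 at a 2.99-fold fall, by miR-20a at 2.87-fold and by miR-92a at 2.20-fold. These are the seed pair known to act on cell cycle genes such as Cdkn1a, and the member known in vessels for its action on endothelial cells. The fitted log2 fold changes of miR-18a and miR-19b were -1.18 and -0.95 and missed the threshold. miR-19a was too dim to be tested. The 3 called members were set against a background of 5.99% of tested probes called in either direction (10 of 167), or 3.59% called lower (6 of 167), and 0 members were called higher where 2.40% of probes were. All 5 tested members had a fitted log2 fold change below 0, as had 52.1% of tested probes, and 4 of the 5 were at -1 or lower, as were 5.39%. An unadjusted limma p under 0.05 was found for 4 of the 5 members and 19.2% of tested probes. The median log2 fold change was -1.18 over the 5 tested members and -0.01 over all 167 tested probes. Tests were limma's, with terms for treatment and dye and Benjamini-Hochberg adjustment over all tested probes, and a call means an adjusted p under 0.05. In RNA from whole cultures, fewer cells that express a miRNA and less of it per cell cannot be told apart.

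**Figure D1:**
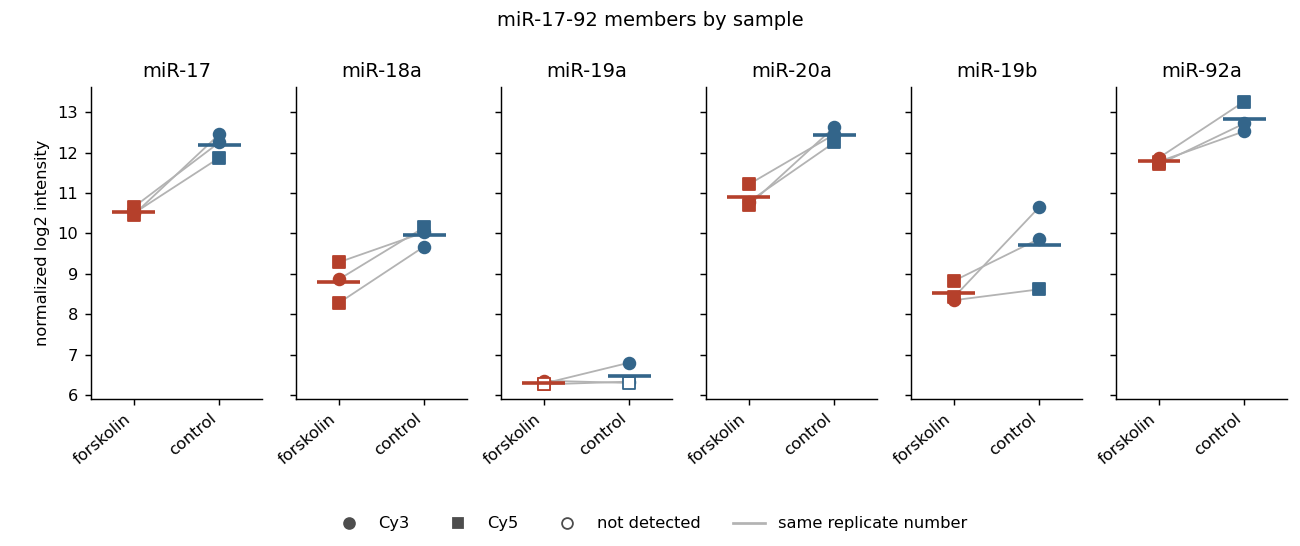
Normalized log2 intensity (vertical axis) of each member in the 3 forskolin (left, red) and 3 control cultures (right, blue), with group means as bars, circles for Cy3, squares for Cy5 and grey lines joining samples of the same replicate number. All forskolin points lie below all control points for miR-17, miR-18a, miR-20a and miR-92a; miR-19b overlaps through control replicate 2, and miR-19a stays near background.

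miR-17, which shares its seed with miR-20a, had normalized log2 intensities of 10.65, 10.50 and 10.46 in forskolin replicates 1 to 3, against 12.25, 11.87 and 12.45 in control replicates 1 to 3. The groups did not overlap, and the nearest samples were 1.22 log2 units apart. Means were 10.54 ± 0.10 in forskolin cultures and 12.19 ± 0.29 in controls (SD, n = 3 each). The fitted change was -1.58 on the log2 scale (standard error, SE, 0.23) at a limma adjusted p of 0.0142, the second most negative of the 167 tested probes. In the authors' deposited table the same miRNA read 1556, 1325 and 1281 in forskolin cultures, against 4236, 4191 and 4590 in controls, a linear intensity with the background removed. The ratio of those means was 0.320.

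miR-20a had normalized log2 intensities of 11.21, 10.78 and 10.70 in forskolin replicates 1 to 3, against 12.45, 12.25 and 12.63 in control replicates 1 to 3. Again no sample of one group reached the other, with a gap of 1.03 log2 units. The log2 fold change was -1.52, SE 0.25, at a limma adjusted p of 0.0157, the third most negative. The deposited table gave 2089, 1839 and 1531 in forskolin cultures, against 5336, 5089 and 5336 in controls, a ratio of 0.346. Over the 6 samples miR-17 and miR-20a had a Pearson correlation of 0.989, a description of 2 probes that differ by 2 bases and share every array.

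miR-92a, the last hairpin of the cluster, had normalized log2 intensities of 11.71, 11.87 and 11.78 in forskolin replicates 1 to 3, against 12.72, 13.26 and 12.53 in control replicates 1 to 3. The groups did not overlap, at 11.78 ± 0.08 in forskolin cultures and 12.84 ± 0.38 in controls (SD, n = 3 each), and control replicate 2 was the highest of the 6. The log2 fold change was -1.14, SE 0.25, at a limma adjusted p of 0.0454, close to the threshold. The deposited table gave 3031, 4071 and 3721 in forskolin cultures, against 6294, 8877 and 4824 in controls, a ratio of 0.541. With the median of the 5 spots in place of their mean the log2 fold change was -1.07 and the limma adjusted p 0.0976.

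miR-18a, which differs from the miR-17 group by a base within the seed and is known as a regulator of Ctgf, had normalized log2 intensities of 9.29, 8.86 and 8.28 in forskolin replicates 1 to 3, against 10.03, 10.15 and 9.68 in control replicates 1 to 3. The groups did not overlap, and the gap was 0.39 log2 units. Forskolin cultures spread more than controls, at 8.81 ± 0.51 and 9.95 ± 0.25 (SD, n = 3 each). The log2 fold change was -1.18, SE 0.32, and the limma adjusted p 0.0807. With the replicate number as a block the limma adjusted p was 0.00128, or 0.0196 with the block and no dye term. The block fit with the dye term gave every probe the same SE, 0.30, so its p-values follow the size of the fold change alone.

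The miR-19 pair shares a seed of its own. miR-19b had normalized log2 intensities of 8.83, 8.35 and 8.42 in forskolin replicates 1 to 3, against 9.87, 8.62 and 10.65 in control replicates 1 to 3. Control replicate 2 lay within the range of the forskolin cultures, so the groups overlapped, and the controls spread more widely, with an SD of 1.02 against 0.26 in the forskolin cultures. The log2 fold change was -0.95, SE 0.46, at a limma adjusted p of 0.341. Blocking on the replicate number beside dye moved the limma adjusted p to 0.0132, in a fit where the spread of miR-19b itself does not enter. With the block and no dye term the limma adjusted p was 0.103. The deposited table gave 356, 237 and 288 in forskolin cultures, against 860, 307 and 1467 in controls.

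miR-19a passed detection only in forskolin replicate 2 and control replicate 3. Its spots read 1.04 to 1.67 times the empty spots of the same array, and its normalized log2 intensities were 6.27, 6.36 and 6.29 in forskolin cultures, against 6.34, 6.31 and 6.81 in controls. No fold is given for it, since on most arrays it was not well above background.

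**Figure D2:**
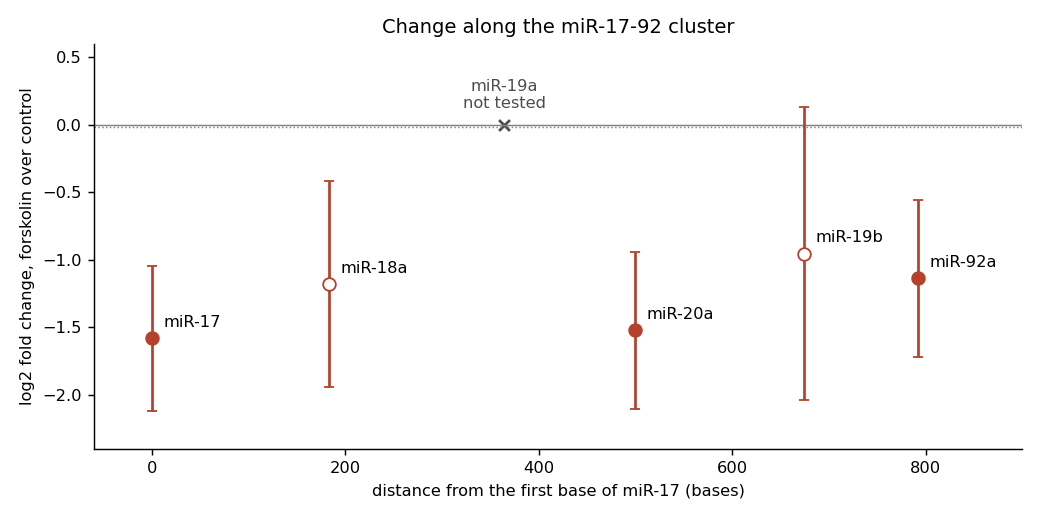
Fitted log2 fold change of forskolin over control (vertical axis, 95% confidence intervals from limma) against the distance in bases from the first base of miR-17, with filled points for calls at an adjusted p under 0.05 and a dotted line at the median of all tested probes. In the order of the cluster the 5 tested members lie at -1.58, -1.18, -1.52, -0.95 and -1.14, and a trend with position was not tested. The cross marks only the place of miR-19a, which was not tested.

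No overlap between forskolin and control samples, with forskolin lower, was seen for 4 of the 5 tested members, against 13.2% of all tested probes (22 of 167). Matched by replicate number, the forskolin sample was the lower one in 3 of 3 pairs for 5 of 5 members, against 25.7% of tested probes (43 of 167). Within pairs 1 to 3 the log2 differences of miR-17 were -1.60, -1.37 and -1.98, and those of miR-92a were -1.01, -1.39 and -0.75. Those of miR-19b were -1.04, -0.27 and -2.23. Replicate numbers were taken to pair the samples, because deviations from the group means correlated between same-numbered samples. Once each pair was fitted as a block beside dye, 5 of 5 tested members fell, where 7.19% of all tested probes did (12 of 167). In that fit 18% were called in either direction. Every probe had the same SE in it, so a call depended on the size of the fold change and not on the probe's own spread. Groups did not overlap, in either direction, for 23.4% of tested probes.

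The dye was unbalanced between the groups, and the members did not all give the same value within each dye. Within Cy3 (forskolin replicate 2 against control replicates 1 and 3) the log2 difference of miR-17 was -1.85, and within Cy5 (forskolin replicates 1 and 3 against control replicate 2) it was -1.31. miR-20a gave -1.75 within Cy3 and -1.29 within Cy5. miR-92a gave -0.75 and -1.52 in that order, and miR-18a -0.99 and -1.37. For miR-19b the difference was -1.91 within Cy3 and 0.01 within Cy5, so its difference was seen within Cy3 and not within Cy5. Each dye has a single sample in one of the groups, and the difference between dyes was not tested.

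Since control replicate 2 was so dim, the unscaled spots show how much rests on scaling. miR-17 spots averaged 1657, 2119 and 1341 in forskolin replicates 1 to 3, against 5232, 1322 and 8235 in control replicates 1 to 3. The raw signal of control replicate 2 was therefore no higher than that of the forskolin cultures of the same dye. Taken above the empty spots and over the 75th percentile of tested probes on the same array, miR-17 stood at 0.575, 0.504 and 0.422 in forskolin cultures, against 1.46, 1.22 and 1.43 in controls, and the groups were apart. On the same scale miR-20a stood at 0.787, 0.672 and 0.489 in forskolin cultures, against 1.84, 1.62 and 1.61 in controls. miR-19b stood at 0.119, 0.101 and 0.0968 in forskolin cultures, against 0.326, 0.0581 and 0.622 in controls, with control replicate 2 the lowest of all.

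With no normalization the log2 fold changes of miR-17, miR-20a and miR-92a were -0.77, -0.72 and -0.26, and none of the members passed. The members' median was then -0.26, while that of all 167 tested probes was 0.48. Scaling to the 75th percentile of all probes gave -0.93, -0.89 and -0.43 for the same 3, also with none passing, and a median over all tested probes of 0.31. The called probes divided into 4 higher and 6 lower as reported, 7 and 5 when scaled to the 75th percentile of probes detected in all samples, 7 and 0 with that of all probes, and 5 and 0 without any normalization. Loess between the dyes left 1 higher and 0 lower, with log2 fold changes of -1.50, -1.46 and -0.98 for miR-17, miR-20a and miR-92a. It aligned only samples of the same replicate number with each other. Cyclic loess left 4 higher and 4 lower.

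The calls also depended on single arrays. Without forskolin replicate 2 the adjusted p was 0.215 for miR-17, 0.240 for miR-20a and 0.198 for miR-92a in limma, and without control replicate 2 it was 0.138, 0.184 and 0.384. In those fits a group keeps samples of a single dye. The log2 fold changes of miR-17, miR-20a and miR-92a were -1.31, -1.31 and -1.49 without forskolin replicate 2. Without control replicate 2 they were -1.78, -1.68 and -0.78. miR-20a also missed without control replicate 3, at a limma adjusted p of 0.0588. miR-92a passed in none of the fits that leave out 1 sample, with limma adjusted p-values from 0.0561 without control replicate 1 to 0.384. Without both samples of replicate 1 the limma adjusted p was 0.146 for miR-17 and miR-20a and 0.329 for miR-92a. Without both samples of replicate 3 it was 0.00154, 0.00280 and 0.00504. The log2 fold change of miR-19b ran from -1.96 without control replicate 2 to 0.01 without forskolin replicate 2.

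**Figure D3:**
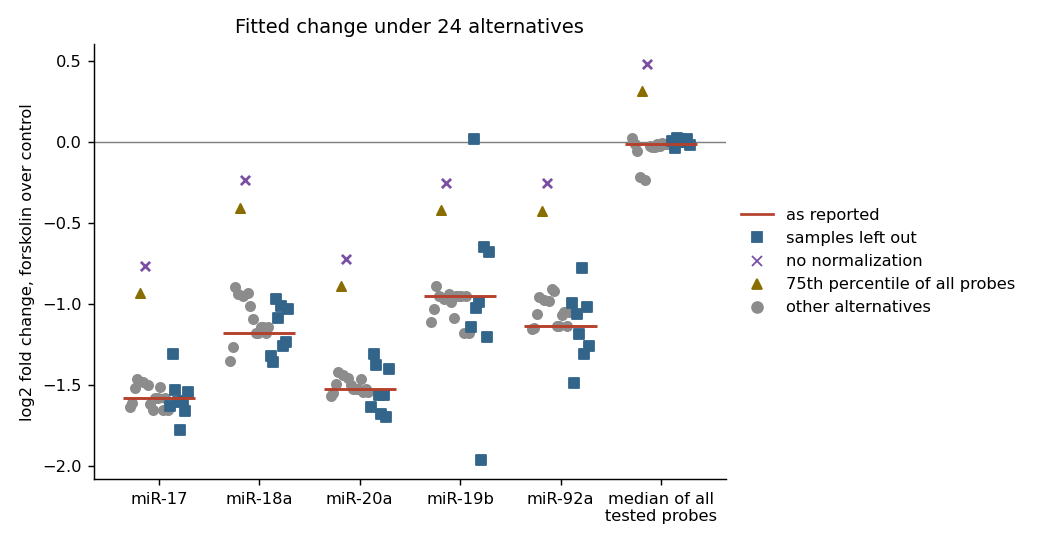
Fitted log2 fold change of forskolin over control (vertical axis) of the 5 tested members and the median of all tested probes under 24 alternative analyses, with the reported value as a red line. Points for miR-17 and miR-20a stay below -0.7 throughout, miR-19b reaches 0.01 without forskolin replicate 2, and without normalization (crosses) all members and the median of all probes shift up together.

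Probes named for passenger strands of the cluster, the arms usually discarded from a hairpin, were too dim to test, so no change was measured for them. Probes named miR-17*, miR-18a*, miR-19a* and miR-20a* were not detected in all samples of either group, and their normalized log2 intensities ran from 6.17 to 6.74 over the 6 samples. miR-17* was detected in forskolin replicate 2 and in control replicates 2 and 3. The target of the miR-19a* probe equals no RefSeq mature miRNA. The probe named miR-92a* does not belong to this cluster by sequence: its target equals the passenger strand of the second miR-92a copy, on the X chromosome (52741892 to 52741913, minus strand). Its target is shown because the name alone points to the wrong locus.
miR-92a*: aGGUGGGGauugguggcauuac

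Probes for the paralogs on other chromosomes were read with the limit on near-identical sequences given above. In the miR-106a-363 cluster 2 of 5 probes were tested, and miR-20b, a near copy of miR-20a, fell by 1.67 on the log2 scale (SE 0.35, limma adjusted p 0.0425). That call was kept in 2 of 8 fits that leave samples out, without control replicate 1 and without both samples of replicate 3, and the fit without forskolin replicate 2 gave -0.98 at a limma adjusted p of 0.311. It had normalized log2 intensities of 8.99, 8.62 and 8.99 in forskolin replicates 1 to 3, against 10.78, 9.95 and 11.21 in control replicates 1 to 3. miR-106a, a near copy of miR-17, had 8.56, 8.47 and 8.88 in forskolin cultures, against 10.06, 9.59 and 11.04 in controls. Its log2 fold change was -1.48, SE 0.38, at a limma adjusted p of 0.0714. With the replicate block its limma adjusted p was 3.16e-05 with the dye term, where every probe has the same SE, and 0.0161 without it. For both, control replicate 3 was the highest sample and control replicate 2 the lowest control. The controls had the same order for miR-17, miR-20a and miR-19b, while for miR-18a and miR-92a control replicate 2 was the highest. miR-18b was detected in 1 sample of each group, and miR-363 and miR-20b* only in forskolin replicate 2.

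In the miR-106b-25 cluster 4 of 5 probes were tested, and none passed in limma. The fitted log2 values were -0.53 (SE 0.25) for miR-106b, -0.73 (SE 0.34) for miR-93 and -0.43 (SE 0.21) for miR-25, with adjusted p-values of 0.327, 0.327 and 0.341 in limma. The fourth, miR-106b*, a passenger strand, had -0.32 (SE 0.19) at a limma adjusted p of 0.417. With the replicate block the limma adjusted p of miR-93 was 0.0794 with the dye term and 0.0250 without it. Single spots of miR-93 ran from 230 to 702 in forskolin replicate 3 and from 894 to 3533 in control replicate 3. With the median of the spots its log2 fold change was -0.73 (limma adjusted p 0.311). miR-25, the counterpart of miR-92a, had normalized log2 intensities of 11.99, 12.45 and 11.87 in forskolin cultures, against 12.63, 12.53 and 12.79 in controls. The direction of miR-106b, miR-93 and miR-25 depended on scaling: with no normalization their log2 fold changes were 0.21, 0.06 and 0.33. miR-92b, which has its own gene but is close to miR-92a beyond the shared seed, had -0.84, SE 0.32, at a limma adjusted p of 0.191. With the replicate block its limma adjusted p was 0.0338 with the dye term and 0.0606 without it. Single spots of miR-92b ran from 665 to 1475 in forskolin replicate 3 and from 1866 to 4703 in control replicate 3. With the median of the spots its log2 fold change was -0.89 (limma adjusted p 0.214). The 2 other miRNAs with that seed, miR-32 and miR-367, were detected only in forskolin replicate 2.

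**Figure D4:**
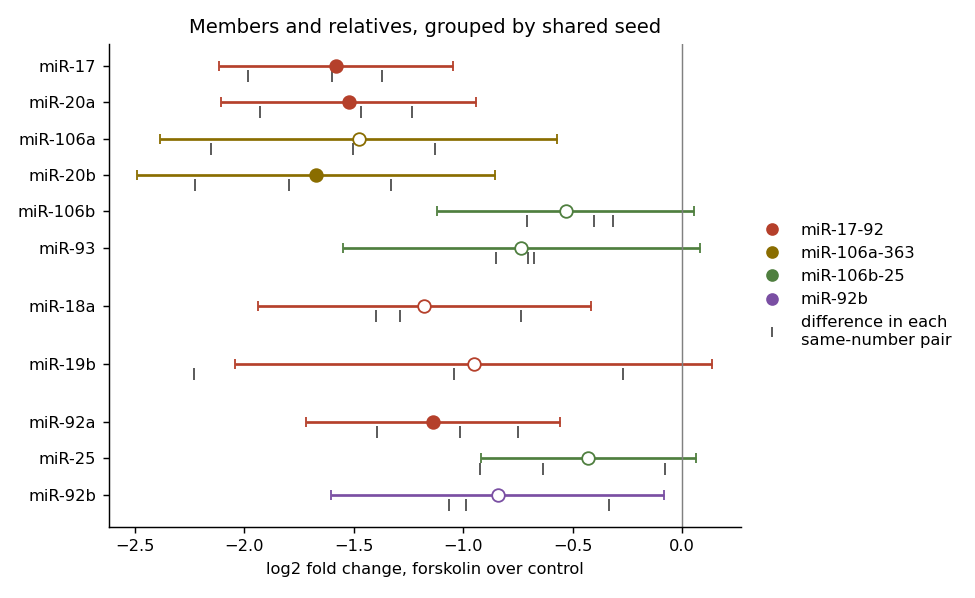
Fitted log2 fold change of forskolin over control (horizontal axis, 95% confidence intervals from limma) for tested members and relatives, set apart by seed, with filled points for calls and ticks for the difference in each same-number pair. Members and the miR-106a-363 pair lie at -0.95 or lower and miR-106b, miR-93 and miR-25 between -0.73 and -0.43; miR-106b*, which has none of these seeds, is not drawn.

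Whether the members changed by different amounts was tested on the per-sample difference between 2 probes, in 10 pairs of members and 5 pairs of a member with its paralog. With 3 samples a group an exact permutation test, two-sided over 20 splits, cannot give a p below 0.1, so no pair could pass. Changes here are differences between group means without the dye term, -1.65 for miR-17, -1.54 for miR-20a and -1.05 for miR-92a. They differ from the fitted changes given above. The change of miR-17 was 0.11 log2 units further down than that of miR-20a (-0.11, exact permutation p = 0.5). It was 0.60 further down than that of miR-92a (-0.60, exact permutation p = 0.4). The order of miR-17 and miR-92a differed between dyes, at -1.85 and -0.75 within Cy3 and at -1.31 and -1.52 within Cy5. Between miR-17 and miR-106a the difference in change was -0.06 (exact p = 0.8), and between miR-20a and miR-20b it was 0.24 (exact p = 0.6). The change of miR-17 minus that of miR-106b was -1.18, and that of miR-20a minus that of miR-93 was -0.80, each below 0 in 3 of 3 pairs and at the smallest exact p the design allows, 0.1. Pairs of members also kept 1 direction in 3 of 3 pairs. These were miR-17 minus miR-18a at -0.51, miR-18a minus miR-20a at 0.40 and miR-20a minus miR-92a at -0.49 (exact permutation p = 0.2 each). For miR-92a and miR-25 the difference was -0.51 (exact p = 0.2). After Benjamini-Hochberg adjustment over the 15 pairs the lowest value was 0.5.

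Since the cluster is a MYC target, miRNAs known to be raised or lowered by MYC were counted. The 10 tested of 13 listed as raised were the 5 tested members and miR-106a, miR-20b, miR-106b, miR-93 and miR-25, so their count restates values given above. Of them 4 fell (miR-17, miR-20a, miR-92a and miR-20b), where 3.59% of all tested probes did, and 0 rose, with a median log2 fold change of -1.16 against -0.01 over all tested probes. With the replicate block and the dye term, where every probe has the same SE, 7 of the 10 fell, against 7.19% of all tested probes. Of 27 listed as lowered by MYC, 23 were tested, and 1 rose, 0 fell and 22 did not pass, where 2.40% of all tested probes rose. That 1 was miR-30c, up by 1.55 on the log2 scale (SE 0.20, limma adjusted p 0.0142), and 4 of the 23 rose with the replicate block, where 10.8% of all tested probes did (18 of 167). The limma adjusted p of miR-30c was 0.198 without forskolin replicate 2, 0.138 without control replicate 2 and 0.146 without both samples of replicate 1. The median of those 23 was 0.07, and 15 of them were above 0 and 8 below. The let-7 miRNAs, the largest family on that list, ran from -0.20 (let-7i) to 0.17 (let-7b). Their relative miR-98 had 1.22, SE 0.60, at a limma adjusted p of 0.346. With the replicate block, where its own spread does not enter, the limma adjusted p was 0.000811. MYC itself was not measured.

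Among the probes outside the cluster and its relatives, the 5 whose profile over the 6 samples was most like the mean of the tested members were miR-222, miR-221, miR-690, miR-16 and miR-145. Their Pearson correlations with that mean were 0.991, 0.960, 0.951, 0.930 and 0.928 over 6 samples that share arrays, scaling and treatment. miR-222, a miRNA studied in smooth muscle proliferation, fell by 1.10 on the log2 scale (SE 0.24, limma adjusted p 0.0465). Without forskolin replicate 2 its value was -0.94 at a limma adjusted p of 0.392, and it passed only without forskolin replicate 1 and without both samples of replicate 3 among the fits that leave samples out. miR-221, miR-690, miR-16 and miR-145 had -0.94, -1.44, -0.39 and -0.40 and did not pass. miR-16 and miR-145 were above 0 with no normalization, at 0.73 and 0.77. The centred mean of the members itself was -0.43, -0.70 and -0.84 in forskolin replicates 1 to 3, against 0.69, 0.46 and 0.82 in control replicates 1 to 3.

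**Figure D5:**
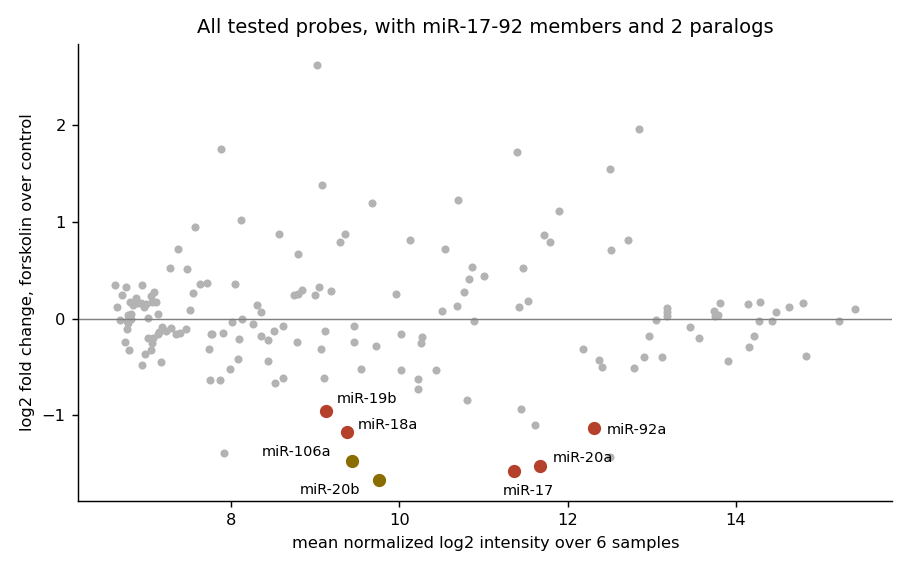
Fitted log2 fold change of forskolin over control (vertical axis) against mean normalized log2 intensity (horizontal axis) for the 167 tested probes (grey), with members in red and miR-106a and miR-20b in ochre. The members lie along the lower edge over a wide range of intensity, among the 10 most negative values.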

How the data were processed

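Small RNA of each culture was size-selected below 300 nt from 4 to 8 µg of total RNA, tailed, tagged and stained with 1 dye by LC Sciences, per the labels' protocols. The scanner files hold the mean intensity of each spot before background subtraction, per the file headers. The authors' deposited series table holds 1 processed intensity per miRNA, and how it was normalized is not given in the sources used here. Its log2 values correlated with the spots above empty spots at 0.996 or more.

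Spots were corrected by normexp (offset 50), averaged per probe, put on the log2 scale and quantile-normalized (limma 3.58.1, R 4.3.3). The offset was added to the spot intensities before the log2 step, so folds of dim probes are understated. After quantile normalization, probes of equal rank share a value. A probe was tested if its mean exceeded the empty spots by over 3 SD in all samples of a group. limma (lmFit, eBayes) had terms for treatment and dye. Steps were tested on simulated data with independent noise in each sample and no effects of dye, pairing or array scaling. That test does not bear on those features.

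Replicates 1, 2 and 3 were paired by deviations that correlated at 0.397, 0.473 and 0.359 over 167 probes. The pairing comes from these data and not from the labels. The block fit with the dye term has 1 residual degree of freedom, and limma then gave every probe an SE of 0.30. The members, lists and the rule for named miRNAs (members, their passenger strands, paralogs and seed relatives, the 5 most similar profiles, called miRNAs of the MYC lists) were chosen with earlier results of these data known. miR-92b and miR-30c are named under that rule. Of 599 targets, 478 equalled a RefSeq mature miRNA.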

Additional observations from a re-analysis of the deposited data

How the results depend on the processing

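Over 24 alternatives the tested members were all below 0 in 23, the exception being miR-19b at 0.014 without forskolin replicate 2 (-1.96 without control replicate 2), and miR-17 passed in 16, miR-20a in 15, miR-92a in 5, miR-18a in 4 and miR-19b in 1. The number of members called was 3 as reported, 5 with the replicate block and dye term, and 0 with empty-spot subtraction, the 75th percentile of all probes, no normalization, loess between dyes and all 599 probes tested. Leaving out samples gave 0 to 4. The number of called probes was 10 as reported, 30 with the replicate block and dye term, 24 with the replicate block and no dye term, 18 with no dye term, 6 in the deposited table with a pseudocount of 1, 5 with spot medians, 5 with no normalization, 1 with loess between dyes, 1 with all probes tested and 0 with empty-spot subtraction, where 34 probes, 4 of them members, had an unadjusted limma p under 0.05. Leaving out samples gave 0 to 27, and the counts of 0 came with 20 to 25 probes at an unadjusted limma p under 0.05. The members' median was -0.96 with the 75th percentile of probes detected in all samples, -0.43 with that of all probes, -0.26 with no normalization, and -1.68 to -1.06 when samples were left out. Values that changed sign with the 75th percentile of all probes were 0.044 for miR-106b, 0.16 for miR-25, 0.57 for miR-16 and 0.61 for miR-145, and with no normalization 0.21, 0.33, 0.73 and 0.77 for the same 4 and 0.057 for miR-93. miR-16 and miR-145 were also at 0.035 and 0.075 with the 75th percentile of probes detected in all samples and at 0.018 and 0.058 with their median, and miR-145 at 0.013 with a pseudocount of 50 and 0.014 with 1 in the deposited table. The causes were not tested, and testing all probes changes both the number of tests and the variance estimate that limma shares between probes. A fit without both samples of replicate 2 was not run, since dye and treatment then coincide.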

Other observations

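Among the 5 spots of miR-92a, the last was the lowest of its array in both samples of replicate 3, at 2686 against 3719 to 3888 for the other 4 spots in forskolin replicate 3, and at 5617 against 8754 to 9412 in control replicate 3. In the other samples another spot was lowest, spot 4 in both samples of replicate 1 and spot 3 in both of replicate 2. Among the spots of miR-92a*, the last was the brightest in both samples of replicate 2, at 362.9 against 211 to 236 for the other 4 in forskolin replicate 2, and at 85.5 against 31.7 to 36.5 in control replicate 2. Spots of miR-93 and miR-92b spread more widely than those of miR-92a in both samples of replicate 3, with the ranges given above. All these spots were noticed after their values were seen, and whether the samples of a number shared a chip was not tested on them.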
